A study of Mus musculus with 21 samples.

Results

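A set of 10 genes was described: Pmaip1, Aen, Bbc3 and Bax of the cell death machinery, Cdkn1a and Ccng1 of cell cycle control, Phlda3, Sesn1 and Trp53inp1 of growth and stress signalling, and Mdm2, the inhibitor of p53 itself. They were chosen by symbol as known targets of the transcription factor p53, with the probe set of highest mean over all arrays standing for each gene. The choice was made with earlier results of these data known. Probe sets naming 9 of the 10 were found among the 12393 genes that could be tested, and Bax, which forms pores in the mitochondrial outer membrane, was not analysed here, nor was Trp53, the gene of p53. The study measured cerebral cortex of 21 mice on Affymetrix MOE430A 2.0 arrays, 1 array a mouse, to compare human TDP-43 in its normal form with a form lacking a working nuclear localization signal (dNLS). TDP-43 is a nuclear RNA-binding protein that leaves the nucleus and aggregates in neurons in amyotrophic lateral sclerosis and frontotemporal dementia. All mice had been off doxycycline for 2 weeks and were of a mixed C57BL/6J x C3HeJ background. The sources used here give no ages.

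The dNLS bigenic group (line NLS4, TDP-43 transgene and tTA both present, 5 mice) is the group in which the dNLS form is driven. The dNLS monogenic group (line NLS4, TDP-43 transgene without tTA, 4 mice) carried the same transgene undriven. The WT bigenic group (line WT12, both transgenes, 4 mice) is the group in which the wild-type human form is driven. The nontransgenic group (neither transgene, 8 mice) held 6 mice of NLS4 and 2 of WT12. The transactivator tTA turns the transgene on once doxycycline is withdrawn, and in the published model it is driven by the Camk2a promoter, which is active in forebrain excitatory neurons. No group carried tTA alone, so in bigenic mice an effect of tTA cannot be told apart from that of TDP-43. Each form of the protein came from 1 line, so form, insertion site and transgene level cannot be told apart between the bigenic groups. The WT bigenic group held 1 male and 3 females and the dNLS bigenic group 4 males and 1 female, for which the fits were adjusted.

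p53 is held low in unstressed cells by Mdm2, a ubiquitin ligase that p53 itself induces. DNA damage, ribosomal stress and other insults free p53, which then turns on genes that arrest the cell cycle, adjust metabolism or permeabilize mitochondria. In neurons, which no longer divide, p53 is known from injury and degeneration. Several of these genes are also induced without p53: Pmaip1, for one, is a target of the stress factor ATF4.

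Values are the deposited log2 levels, which have a common lowest value of 2.04. A level within 0.01 of it is called at the lowest value. A gene there may be expressed below it, and a change toward it is compressed. Changes are differences of log2 level, adjusted for sex, from limma fitted to all genes and all 21 arrays, given ± SE; "passed" means a Benjamini-Hochberg adjusted p under 0.05 over all 12393 genes. The beta-actin control probe sets at the 3' and 5' ends of the transcript, whose difference grows as RNA is degraded, differed by 1.34 to 2.30 in dNLS bigenic, 1.56 to 3.13 in dNLS monogenic and 1.37 to 1.43 in WT bigenic arrays. In nontransgenic arrays the difference ran from 1.46 to 8.20, and nontransgenic 6 (8.20) and nontransgenic 4 (4.70) stood apart. The male nontransgenic mouse nontransgenic 1 had a level of Xist in the range of the females (11.97). Mouse Tardbp, the endogenous gene of TDP-43, was at 10.90 ± 0.13 in dNLS bigenic and 11.11 ± 0.13 in nontransgenic cortex (SD, n = 5 and 8) and passed as lower (adjusted p = 0.0212). The level of the human transgene was not analysed here. In bulk cortex, fewer cells of a type and less RNA per cell cannot be told apart. Neuronal, astrocyte and oligodendrocyte markers were above the lowest value in all groups. Summed levels of 7 excitatory neuron markers ran from 73.8 to 77.9 in dNLS bigenic, from 77.9 to 80.3 in WT bigenic and from 73.7 to 81.3 in nontransgenic arrays, and 3 of the 7 passed as lower between dNLS bigenic and nontransgenic mice, where 11.5% of all genes did. Of 10 pan-neuronal markers 3 passed as higher and 1 as lower, where 10.8% of all genes passed as higher. The sum of 9 microglial markers, of which Itgam was at the lowest value on every array, ran from 66.3 to 74.2 in dNLS bigenic, from 76.6 to 86.6 in WT bigenic and from 67.3 to 76.9 in nontransgenic arrays. Of these 9 markers 1 passed as lower in dNLS bigenic and 0 in WT bigenic against nontransgenic mice. The shares of all genes were 11.5% as lower in the first comparison and 2.23% in either direction in the second. The part of cell makeup in the results below was not tested.

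Promoter sequence is given for the genes that passed between dNLS bigenic and nontransgenic cortex, as far as it was given, and for Cdkn1a, which was added after its values were seen. Each stretch is the 250 bases before an annotated RefSeq start (GRCm38.p6, plus strand, 5' to 3'), and capitals mark matches to the p53 decamer, a 10-base consensus that p53 binds in pairs. The decamer was searched on both strands. Aen and Cdkn1a have 2 annotated starts each, and the start with a match before it is shown. The first Aen start has the same match 10 bases after it, and the second Cdkn1a start has none.
Aen, chr7:78895808-78896057: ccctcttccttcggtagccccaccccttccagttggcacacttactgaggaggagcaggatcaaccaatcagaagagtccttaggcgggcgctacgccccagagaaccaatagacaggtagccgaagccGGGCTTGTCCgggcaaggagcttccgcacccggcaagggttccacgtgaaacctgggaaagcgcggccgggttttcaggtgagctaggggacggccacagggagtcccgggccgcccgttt
Phlda3, chr1:135765835-135766084: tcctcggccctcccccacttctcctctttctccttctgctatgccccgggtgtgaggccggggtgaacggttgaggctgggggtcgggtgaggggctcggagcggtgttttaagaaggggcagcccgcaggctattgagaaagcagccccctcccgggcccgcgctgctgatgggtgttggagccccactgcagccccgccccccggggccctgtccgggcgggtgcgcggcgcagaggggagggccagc
Sesn1, first start, chr10:41810324-41810573: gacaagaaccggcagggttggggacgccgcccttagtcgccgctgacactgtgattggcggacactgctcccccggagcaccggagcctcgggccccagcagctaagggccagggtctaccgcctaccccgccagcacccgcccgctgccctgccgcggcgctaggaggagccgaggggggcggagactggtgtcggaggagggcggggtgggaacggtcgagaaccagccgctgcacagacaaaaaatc
Sesn1, second start, chr10:41887189-41887438: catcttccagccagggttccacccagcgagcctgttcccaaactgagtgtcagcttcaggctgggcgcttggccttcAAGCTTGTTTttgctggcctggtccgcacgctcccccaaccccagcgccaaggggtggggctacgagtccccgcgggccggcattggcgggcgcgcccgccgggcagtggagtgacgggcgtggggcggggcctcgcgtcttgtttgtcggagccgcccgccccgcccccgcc
Cdkn1a, chr17:29090729-29090978: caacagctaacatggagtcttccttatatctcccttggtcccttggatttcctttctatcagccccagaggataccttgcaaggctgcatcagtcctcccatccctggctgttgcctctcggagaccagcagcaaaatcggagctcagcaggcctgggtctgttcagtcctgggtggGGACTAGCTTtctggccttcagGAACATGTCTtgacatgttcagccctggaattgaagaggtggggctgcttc
Aen held 1 match, which began 121 bases before the start, and the second Sesn1 start had 1 that began 173 bases before it. Phlda3 and the first Sesn1 start had none. Cdkn1a held 2 matches that began 73 and 51 bases before the start, close enough to count as 1 full site with a spacer of up to 13 bases. Among all 32851 RefSeq promoter windows, which run from 250 bases before to 50 after a start, 8.36% held at least 1 decamer and 0.0731% a full site. A match is a description of letters and not a bound site, and where there was none, these letters are not in this window.

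In cortex of mice with dNLS TDP-43, the death genes Pmaip1 and Aen rose most of the 9. Pmaip1 was 8.90-fold and Aen 2.85-fold higher in dNLS bigenic than in nontransgenic mice. Phlda3, which restrains Akt signalling, was 1.75-fold higher, and Sesn1, a sestrin that restrains mTORC1, was 1.53-fold lower. Thus 3 of the 9 measured genes rose and 1 fell. The other 5, among them Cdkn1a and Mdm2, did not pass, and 1 of them, Bbc3, was within 0.01 of the lowest value on every array. Over all genes 22.3% passed in this comparison, 10.8% as higher and 11.5% as lower. The median change was 0.26 over the 9 genes and 0 over all genes. As the genes were listed with earlier results of these data known, these counts describe the set and do not test it.

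**Figure D1:**
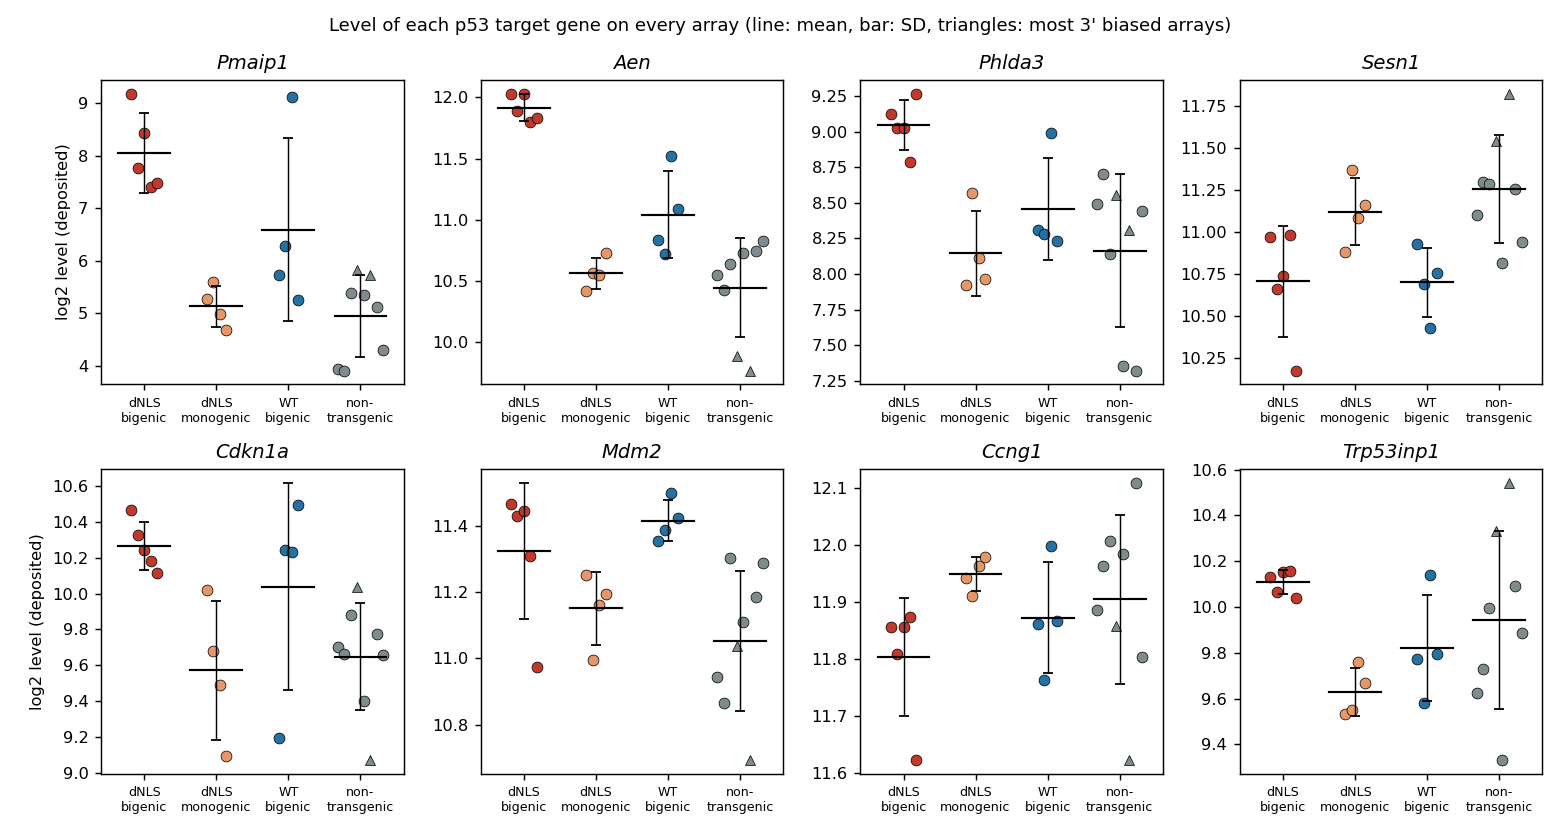
Deposited log2 level (vertical axis) of the 8 genes above the lowest value, on each array, by group (horizontal axis). Points are arrays, lines are group means and bars SD; triangles mark nontransgenic 4 and nontransgenic 6, the arrays of largest 3' bias. All 5 dNLS bigenic arrays lie above all 8 nontransgenic arrays for Pmaip1, Aen, Phlda3 and Cdkn1a.

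Pmaip1 (chromosome 18, GRCm38.p6) encodes Noxa, a BH3-only protein that neutralizes the survival factor Mcl-1. Its level was 9.19, 7.77, 8.45, 7.40 and 7.48 in the 5 dNLS bigenic mice. In nontransgenic mice it had a lowest value of 3.91, a median of 5.24 and a highest of 5.82. Every dNLS bigenic mouse was thus above every nontransgenic mouse. The change was 3.15 ± 0.58 (95% interval 1.93 to 4.38, adjusted p = 0.000645). With mice of the NLS4 line only it was 3.04 (adjusted p = 0.000801). The 4 dNLS monogenic mice had 5.27, 5.60, 4.99 and 4.68, all within the nontransgenic range, and dNLS bigenic exceeded dNLS monogenic mice by 2.93 ± 0.66 (adjusted p = 0.00524).

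Aen (chr7:78895927-78911209), whose promoter is shown above, encodes a nuclease that p53 induces and that degrades nucleic acid during apoptosis. Its level was 12.03, 11.89, 12.03, 11.80 and 11.83 in dNLS bigenic mice. In nontransgenic mice the lowest was 9.77, the median 10.59 and the highest 10.83. The groups did not overlap, and the dNLS bigenic values lay close together. Aen differed by 1.51 ± 0.18 (adjusted p = 9.96e-06). The 2 lowest nontransgenic values, 9.88 and 9.77, were those of the arrays of largest 3' bias. Without these arrays the change was 1.31, and with the beta-actin difference as a covariate it was 1.29. A second probe set, at 3.83 ± 0.76 in dNLS bigenic mice (SD, n = 5) and near the lowest value in nontransgenic mice (2.13 ± 0.08, n = 8), passed as well, with 1.66 ± 0.27 (adjusted p over all probe sets = 0.0003). The remaining one was within 0.01 of the lowest value on all nontransgenic arrays and did not pass. Of the 18 probe sets of the 9 genes, 4 passed as higher and 1 as lower, where 19.7% of all probe sets passed.

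Phlda3 (chr1:135766085-135769134) encodes a pleckstrin homology domain protein that keeps Akt, a survival kinase, from the membrane. Its level was 9.12, 9.02, 9.03, 8.79 and 9.27 in dNLS bigenic mice. In nontransgenic mice it ran from 7.32 over a median of 8.38 to 8.71. The groups did not overlap, but the nontransgenic mice were spread over a wide range. The difference was 0.81 ± 0.23 (adjusted p = 0.0164). It no longer passed when only those groups entered the fit (0.77, adjusted p = 0.0569) or without dNLS bigenic 5, the highest mouse (0.64, adjusted p = 0.0944).

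Sesn1 (chr10:41810574-41908436) encodes sestrin 1, which senses amino acids and oxidative stress and lowers mTORC1 activity. Its probe set of highest mean read 10.97, 10.66, 10.74, 10.98 and 10.18 in dNLS bigenic mice. In nontransgenic mice it read 10.81 at the lowest, 11.27 at the median and 11.82 at the highest. The groups overlapped, and dNLS bigenic 5 was the lowest and nontransgenic 6, the array of largest 3' bias, the highest. It fell by 0.61 ± 0.16 on the log2 scale (adjusted p = 0.0085). The other 2 probe sets of the gene changed by -0.17 and -0.10 and did not pass, and on them dNLS bigenic 5 was the highest of its group (11.09 and 10.48). The call was lost for the mean of the 3 probe sets (-0.30, adjusted p = 0.0773) and without dNLS bigenic 5 (-0.47, adjusted p = 0.0621). Sesn1 is known as a gene that p53 induces.

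Cdkn1a (chr17:29090979-29100722) encodes p21, the inhibitor of cyclin-dependent kinases by which p53 arrests the cell cycle. Its level was 10.46, 10.33, 10.24, 10.18 and 10.12 in dNLS bigenic mice. In nontransgenic mice the lowest was 9.07, the median 9.68 and the highest 10.04. The groups did not overlap, as held for 4 of the 9 genes against 12.5% of all genes. The difference of 0.58 ± 0.21 lay just outside the threshold (adjusted p = 0.0530). It passed under 6 of the 11 other settings, for example with NLS4 mice only (0.58, adjusted p = 0.00478), and had an adjusted p of 0.116 with the 3' bias as a covariate. The second probe set was near the lowest value, at 2.50 ± 0.17 in dNLS bigenic and 2.22 ± 0.08 in nontransgenic mice.

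Mdm2, the ubiquitin ligase that marks p53 for degradation, was at 11.47, 11.43, 11.44, 11.31 and 10.97 in dNLS bigenic mice. It ran from 10.69 over 11.07 to 11.30 in nontransgenic mice. Of the dNLS bigenic mice 4 were above all nontransgenic mice and dNLS bigenic 5 lay among them. The change was 0.26 ± 0.10 (adjusted p = 0.0911), and without dNLS bigenic 5 it was 0.38 (adjusted p = 0.0141). The dimmer probe set changed by 1.35 ± 0.46 (adjusted p = 0.0506). With its probe sets averaged Mdm2 changed by 0.80 and passed (adjusted p = 0.0482). In 10 of the 11 other settings it did not pass. Ccng1, cyclin G1, which brings a phosphatase to Mdm2, was at 11.80 ± 0.10 in dNLS bigenic and 11.90 ± 0.15 in nontransgenic mice (SD). Its change of -0.12 ± 0.07 did not pass (adjusted p = 0.263), though it passed as lower with the 3' bias as a covariate (-0.19, adjusted p = 0.00994), without the 2 arrays of largest bias (-0.17, adjusted p = 0.0463) and with each array centred on its median (-0.20, adjusted p = 0.0243). Trp53inp1, a stress-induced protein that enhances p53 phosphorylation, was at 10.11 ± 0.05 in dNLS bigenic and 9.94 ± 0.39 in nontransgenic mice (SD), a change of 0.18 ± 0.16 (adjusted p = 0.569). Bbc3, which encodes the BH3-only protein Puma, was within 0.01 of the lowest value on all 21 arrays (2.05 on nontransgenic 2), so its level had only an upper bound.

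**Figure D2:**
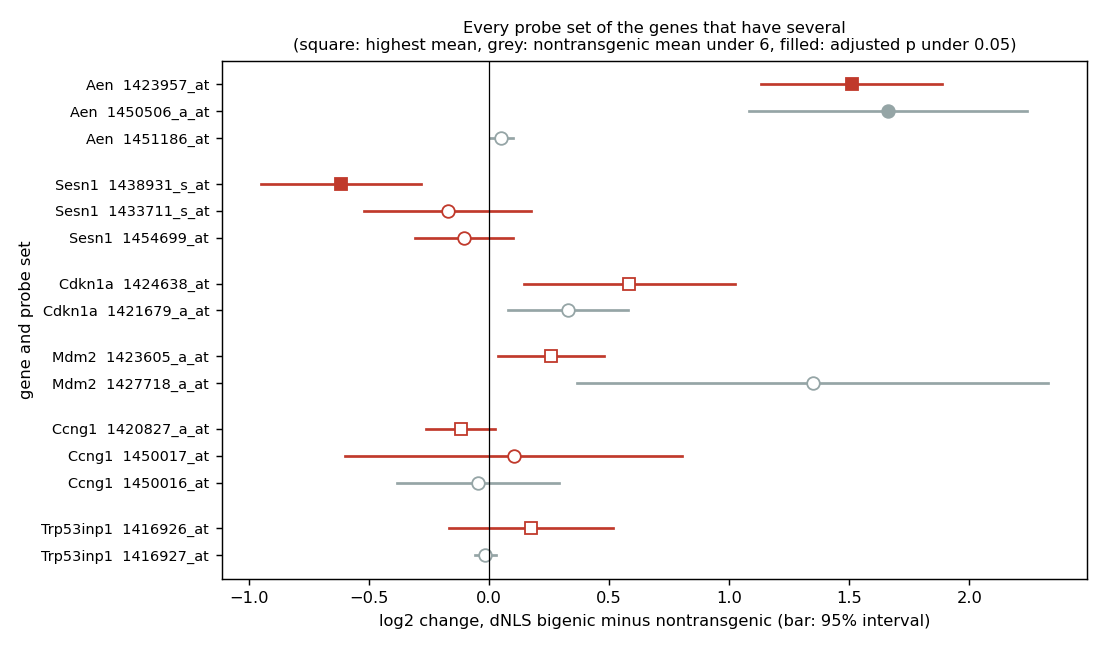
Log2 change between dNLS bigenic and nontransgenic mice (horizontal axis) for every probe set of the 6 genes with several (vertical axis). Bars are 95% intervals, squares the probe set of highest mean, grey marks a nontransgenic mean under 6, and filled symbols passed. The brightest Aen probe set lies at 1.51 and a dim one, in grey, at 1.66, whereas for Sesn1 1 of 3 passed.

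Set beside mice with the undriven transgene, dNLS bigenic mice again had Pmaip1, Aen and Phlda3 as higher. These 3 passed against dNLS monogenic mice and none of the 9 fell, in a comparison where 14.3% of all genes passed, 7.76% as higher and 6.54% as lower. Of the 18 probe sets 4 passed as higher, and 12% of all probe sets passed. Aen was at 11.80 or above in dNLS bigenic mice, against 10.42, 10.56, 10.55 and 10.73 in the 4 dNLS monogenic mice, and the change was 1.36 ± 0.20 (adjusted p = 0.00018). Phlda3 was at 7.93, 8.57, 8.12 and 7.97 in dNLS monogenic mice, and its change of 0.89 ± 0.26 had an adjusted p of 0.0294. That call did not hold without any 1 of dNLS bigenic 1, dNLS bigenic 5, dNLS monogenic 1, dNLS monogenic 3 or dNLS monogenic 4, with adjusted p from 0.0565 to 0.0978. Cdkn1a was at 10.02, 9.68, 9.49 and 9.10 in dNLS monogenic mice and did not overlap with the dNLS bigenic group, with a change of 0.69 ± 0.24 (adjusted p = 0.0638). Trp53inp1 did not overlap either, at 10.11 ± 0.05 in dNLS bigenic against 9.63 ± 0.11 in dNLS monogenic mice, and changed by 0.48 ± 0.18 (adjusted p = 0.101). Groups did not overlap for 6 of the 9 genes, and for 19.8% of all genes, in either direction. Of these 6, Ccng1 lay below, at 11.62 to 11.87 in dNLS bigenic against 11.91 to 11.98 in dNLS monogenic mice. Its change of -0.15 ± 0.08 did not pass (adjusted p = 0.269). Sesn1 changed by -0.42 ± 0.18, with overlap, and did not pass either (adjusted p = 0.148). Where only those groups entered the fit, 5 of the 9 passed as higher, Trp53inp1 among them (0.48, adjusted p = 0.00223).

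The undriven transgene by itself went with no detectable difference. Between dNLS monogenic and nontransgenic mice 0 of the 9 genes passed in limma, 0 of the 9 had an unadjusted p under 0.05, and 0% of all genes passed (196 of 12393 at an unadjusted p under 0.05). For 0 of the 9 the groups did not overlap, which held for 0.0646% of all genes. The 95% interval of the change was -1.07 to 1.52 for Pmaip1 and -0.25 to 0.55 for Aen. Differences inside these bounds were not excluded by these arrays.

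**Figure D3:**
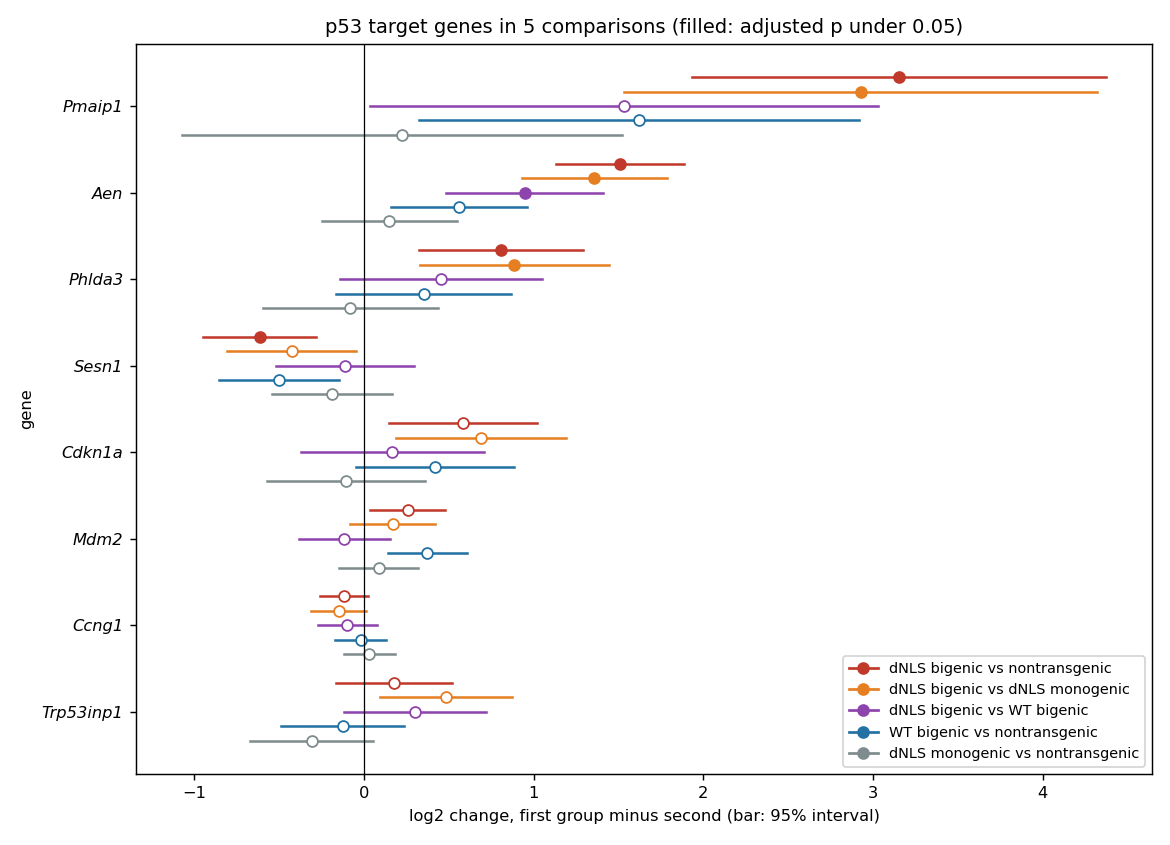
Log2 change of each gene (vertical axis) in the 5 comparisons, first-named minus second-named group (horizontal axis), with 95% intervals and filled symbols where the adjusted p was under 0.05. Aen is filled in all 3 comparisons of dNLS bigenic mice, Pmaip1 and Phlda3 in 2.

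With wild-type TDP-43 no gene of the set passed. None of the 9 genes passed between WT bigenic and nontransgenic mice (limma, 0 of 9, where 2.23% of all genes did, 0.686% as higher and 1.54% as lower), and 4 had an unadjusted p under 0.05: Pmaip1, Aen and Mdm2 higher and Sesn1 lower. Both this and the comparison of dNLS bigenic with nontransgenic mice used the same 8 controls. Pmaip1 was at 5.72, 6.28, 9.13 and 5.25 in WT bigenic mice. WT bigenic 3 was just below the highest dNLS bigenic mouse, WT bigenic 2 was above the nontransgenic range and the other 2 were inside it. The change was 1.62 ± 0.61 (adjusted p = 0.164, 95% interval 0.32 to 2.92), and without WT bigenic 3 it was 0.82. Aen was at 10.84, 10.72, 11.52 and 11.09 in WT bigenic mice, with WT bigenic 3 again the highest, and the change was 0.56 ± 0.19 (adjusted p = 0.124). The WT bigenic mice were all of line WT12, and most nontransgenic mice were of NLS4. For Aen the 2 nontransgenic mice of WT12 read 10.75 and 10.83, above every nontransgenic mouse of NLS4. The part of line in this comparison was not tested. Phlda3 was at 8.31, 8.28, 8.99 and 8.24 in WT bigenic mice, also with WT bigenic 3 the highest, and the change was 0.35 ± 0.24 (adjusted p = 0.473).

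**Figure D4:**
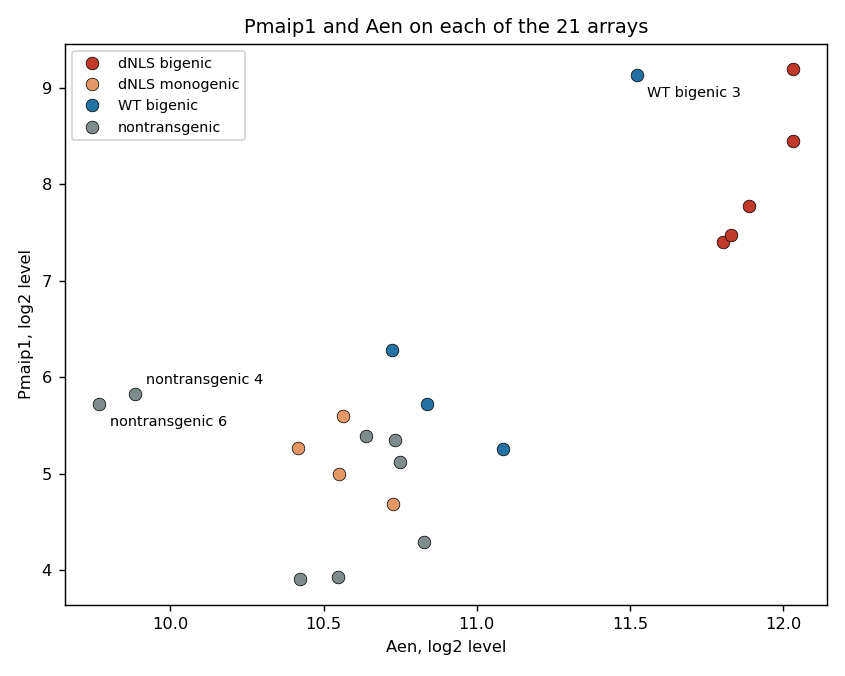
Log2 level of Aen (horizontal axis) and Pmaip1 (vertical axis) on each of the 21 arrays, coloured by group. WT bigenic 3 sits between the other WT bigenic mice and the dNLS bigenic mice for Aen, at 11.52, and just below the highest dNLS bigenic mouse for Pmaip1, at 9.13.

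Mdm2 was the 1 gene of the 9 whose WT bigenic values, 11.35, 11.39, 11.50 and 11.42, all lay above the nontransgenic values. Over all genes, 5.25% had no overlap between these groups, in either direction. The change of Mdm2 was 0.37 ± 0.11 (adjusted p = 0.0834). Sesn1 was at 10.93, 10.69, 10.43 and 10.76 in WT bigenic mice and changed by -0.50 ± 0.17 (adjusted p = 0.12). Cdkn1a was at 9.19, 10.24, 10.23 and 10.49 in WT bigenic mice, of which WT bigenic 1 alone lay inside the nontransgenic range. Its change was 0.42 ± 0.22 (adjusted p = 0.330), and without WT bigenic 1 it was 0.86 (adjusted p = 0.0315). On the dim Cdkn1a probe set the values were 2.27, 3.01, 3.14 and 3.26 in WT bigenic against 2.22 ± 0.08 in nontransgenic mice, and that probe set passed (0.67 ± 0.13, adjusted p over all probe sets = 0.0183). It was the 1 probe set of the 18 that did so, where 1.92% of all probe sets passed. Centring each array on its median shifted the median gene by -0.11 in this comparison, and 4 of the 9 genes then passed, Aen (0.45) and Mdm2 (0.26) as higher and Sesn1 (-0.62) and Bbc3, a gene at the lowest value, as lower. Of all 12393 genes 4966 passed under that centring, 4740 of them as lower.

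Aen was higher in dNLS bigenic than in WT bigenic mice by 0.95 ± 0.22 (adjusted p = 0.00883), without overlap, and was the 1 gene of the 9 that passed, in a comparison where 10.8% of all genes did, 6.24% as higher and 4.53% as lower. It was also the 1 gene without overlap, which held for 22.4% of all genes, and 1 of the 18 probe sets passed, against 8.64% of all probe sets. The call was lost without WT bigenic 1 (0.89, adjusted p = 0.0551). Pmaip1 differed by 1.53 ± 0.71 (adjusted p = 0.222). Without WT bigenic 3 the difference was 2.27 (adjusted p = 0.0126). Phlda3 differed by 0.46 ± 0.28 (adjusted p = 0.426), Trp53inp1 by 0.30 ± 0.20 (adjusted p = 0.472), Cdkn1a by 0.17 ± 0.25 (adjusted p = 0.993), Sesn1 by -0.11 ± 0.19, Mdm2 by -0.11 ± 0.13 and Ccng1 by -0.10 ± 0.08. For Cdkn1a the 95% interval was -0.37 to 0.71 and for Mdm2 -0.38 to 0.15, and a p above the threshold does not show that levels are alike.

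Regulators, partners and other targets of p53 were read from lists. Among 17 measured regulators of p53, 2 rose and 3 fell in dNLS bigenic against nontransgenic mice, 29.4% against 22.3% of all genes. That count of 5 was 2 without dNLS bigenic 4 or with only those groups fitted, and 3 without any 1 of dNLS bigenic 1, dNLS bigenic 3, nontransgenic 1, nontransgenic 2 or nontransgenic 4. Mdm4, the partner of Mdm2 that masks the p53 activation domain, was 9.46 ± 0.18 in dNLS bigenic and 9.01 ± 0.32 in nontransgenic mice (0.46 ± 0.15, adjusted p = 0.0325). Rpl11, a ribosomal protein that binds Mdm2 under ribosomal stress, rose by 0.33 ± 0.04 (adjusted p = 3.22e-05). Usp7, which deubiquitinates Mdm2 and p53 (-0.26), the ubiquitin ligase Cop1 (-0.30) and Trp53bp1 of DNA repair (-0.35) fell. Of 42 other p53 targets, 4 rose and 5 fell (21.4%), near the share of all genes, and 5 in all passed with only those groups fitted. Over the 11 other settings the count of all genes in this comparison ran from 1926 to 3339, in place of 2759. The growth arrest gene Gadd45b rose by 1.32 ± 0.34, on all 3 of its probe sets, and Triap1, an inhibitor of apoptosis, by 1.19 ± 0.40. Sesn2 rose by 0.46 near the lowest value (2.56 ± 0.40 in dNLS bigenic and 2.10 ± 0.04 in nontransgenic mice). Rprm, which halts cells before mitosis, fell by 1.75 ± 0.11 on the log2 scale (adjusted p = 2.31e-08), without overlap. The secreted growth factor binder Igfbp3 (-1.24) and Perp, a p53 effector at cell junctions (-0.55), fell too.

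Partners of Pmaip1 at the mitochondrion changed in both directions. Of 11 measured BCL2 family effectors and BH3-only genes, 4 rose and none fell (36.4%, against 22.3% of all genes), and 4 of the 11 were at the lowest value on every array. The count was 2 without dNLS bigenic 1, without nontransgenic 4, with arrays centred or with only those groups fitted. That of all genes ran from 1926 to 3339 over the 11 other settings and from 2365 to 3316 with 1 array left out. Bid, the BH3-only protein that caspases activate, was 9.80 ± 0.12 in dNLS bigenic and 7.80 ± 0.49 in nontransgenic mice, a rise of 1.98 ± 0.24 (adjusted p = 1.08e-05), and its other probe set, near the lowest value, did not pass. Bok, a Bax-like effector, rose by 1.31 ± 0.27 (adjusted p = 0.00178) and was also higher in dNLS bigenic than in WT bigenic mice, by 2.11 ± 0.33 (adjusted p = 0.00047). Bid differed between the bigenic groups as well, by 1.43 ± 0.29 (adjusted p = 0.00347). Bak1 rose by 0.29 ± 0.10 (adjusted p = 0.0480). Of 4 measured survival members, Mcl1, which Noxa neutralizes, rose by 0.27 ± 0.06, and Bcl2l1 fell by 0.60 ± 0.14 on the log2 scale. Of the 6 Mcl1 probe sets 2 passed, and of the 4 Bcl2l1 probe sets 1 did; with all probe sets averaged neither gene passed (0.25, adjusted p = 0.0612, and 0.074).

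**Figure D5:**
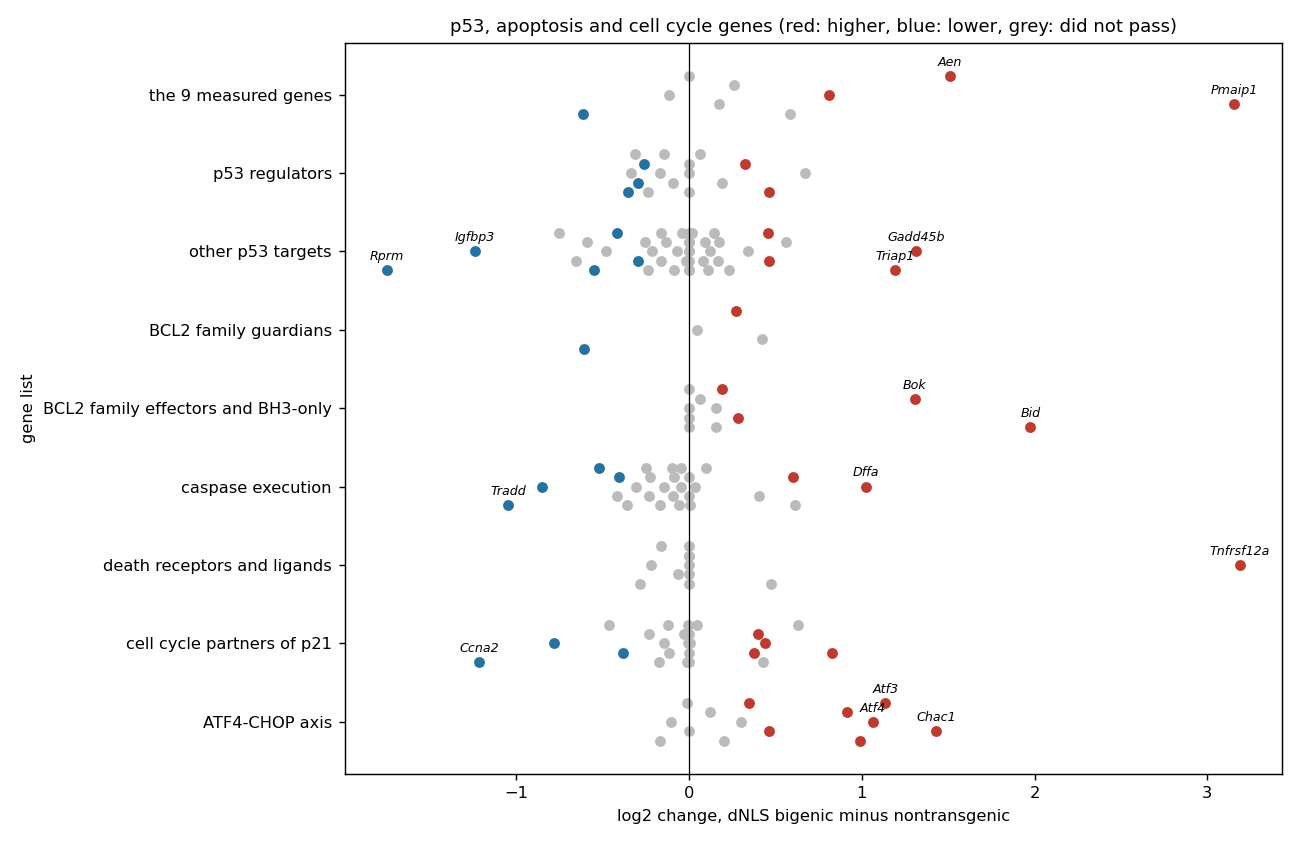
Log2 change between dNLS bigenic and nontransgenic mice (horizontal axis) of each measured gene, by gene list (vertical axis, points spread within a list for legibility). Red marks genes that passed as higher, blue as lower, and names are given to those past 1 on the log2 scale; Pmaip1 (3.15) and Tnfrsf12a (3.19) lie furthest right.

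Downstream of the mitochondrion, 2 of 27 caspase execution genes rose and 4 fell, a share of 22.2% that is that of all genes (22.3%). Without the 2 arrays of largest 3' bias 10 of the 27 passed. The count of all genes moved between settings too, from 1926 to 3339 in place of 2759. Dffa, the inhibitor of the caspase-activated nuclease, rose by 1.03 ± 0.16, and Htra2, a mitochondrial protease that blocks caspase inhibitors, by 0.60 ± 0.10. Apaf1, the scaffold of the apoptosome, fell by 0.85 ± 0.14 on the log2 scale, Tradd, an adaptor of the TNF receptor, by 1.05 ± 0.21 and Casp6 by 0.52 ± 0.14 near the lowest value. Of 12 measured genes listed under death receptors and ligands, 5 were at the lowest value on every array. Tnfrsf12a, the TWEAK receptor, was the 1 of the 12 that passed (8.33%, against 22.3% of all genes). It was 6.82 ± 0.38 in dNLS bigenic and 3.62 ± 0.37 in nontransgenic mice, a rise of 3.19 ± 0.26 (adjusted p = 1.9e-07). Among 24 cell cycle partners of p21, 4 rose and 3 fell (29.2%, and 4 in all with only those groups fitted). Ccne2 (0.83), Cdk5 (0.44) and Rbl2 (0.40) were higher and Ccna2 (-1.21), Ccnd1 (-0.78) and Cdkn1b (-0.38) lower. The other probe sets of Cdk5 (-3.9e-05), Ccna2 (-0.061) and Cdkn1b (0.93) did not pass. Of 14 genes of the ATF4 and CHOP stress axis, 7 rose and none fell (50%, against 22.3% of all genes). Among them were Chac1 (1.43 ± 0.40), Atf3 (1.14 ± 0.28) and Atf4 (1.07 ± 0.15). Atf3 was near the lowest value, at 3.11 ± 1.01 in dNLS bigenic and 2.07 ± 0.07 in nontransgenic mice (SD, n = 5 and 8). Another Atf4 probe set changed by 0.15 and did not pass, and the mean of the Atf4 probe sets changed by 0.40.

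These calls differed in how firm they were. Of the 31 genes named here outside the set for dNLS bigenic against nontransgenic mice, 16 kept their call in all 11 other settings. The calls of Mdm4, Cop1, Trp53bp1, Triap1, Sesn2, Igfbp3, Mcl1, Bcl2l1, Bak1, Casp6, Cdk5, Rbl2, Cdkn1b, Ccna2 and Chac1 were lost in at least 1. Leaving out 1 array ended the call of Cop1 (dNLS bigenic 4, -0.26, adjusted p = 0.0536), Sesn2 (dNLS bigenic 4, 0.41, adjusted p = 0.0539), Igfbp3 (dNLS bigenic 3, -1.19, adjusted p = 0.0515), Chac1 (dNLS bigenic 5, 1.31, adjusted p = 0.0608) and Atf3 (dNLS bigenic 5, 0.78, adjusted p = 0.0564). Those of Bak1, Trp53bp1, Triap1, Mdm4, Ccna2 and Rbl2 ended without any 1 of 16, 16, 15, 6, 6 and 3 arrays, with adjusted p up to 0.135.

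In WT bigenic against nontransgenic mice few genes of these lists passed. Gadd45g, a growth arrest gene, rose by 0.91 ± 0.16 (adjusted p = 0.0168), the 1 of 42 other p53 targets (2.38%). Gadd45b did not pass here on its probe set of highest mean, with a change of 1.31 near that of dNLS bigenic mice. Its other probe sets changed by 1.38, which passed (limma, adjusted p over all probe sets = 0.0183), and by 2.19, which did not (0.0754). Of 27 caspase execution genes, cytochrome c (Cycs, -0.42 ± 0.08, adjusted p = 0.0181) and the caspase inhibitor Xiap (-0.30 ± 0.05, adjusted p = 0.0159) fell (7.41%). Cdkn1b, the cell cycle inhibitor p27, fell by 0.35 ± 0.09 on the log2 scale (adjusted p = 0.0468), the 1 of 24 p21 partners (4.17%). None of the 4 passed when only the groups compared entered the fit, and with probe sets averaged Cdkn1b was at 0.63 (adjusted p = 0.42) and Xiap at -0.016. None of the 17 regulators, 4 survival genes, 11 effectors, 12 death receptors or 14 genes of the ATF4 and CHOP axis passed (limma), where 2.23% of all genes did. Of the 12 death receptors 5 were at the lowest value on every array. With arrays centred, which moved genes at the lowest value too, 6 of the 17 regulators, 14 of the 42 other targets, 5 of the 11 effectors, 6 of the 27 execution genes, 5 of the 12 death receptors, 7 of the 24 p21 partners and 2 of the 14 axis genes did. Under that centring 4966 of all 12393 genes passed, 226 as higher and 4740 as lower. Gadd45g did not pass without WT bigenic 1 or WT bigenic 3, nor Cycs without WT bigenic 1, nor Cdkn1b without any 1 of 15 arrays.

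Over the 21 arrays, the genes most like Pmaip1 in level were Tnfrsf12a (Pearson r = 0.88), Ddit3 (0.88) and Psph (0.88). Those most like Aen were Rpl11 (0.97), Creg1 (0.96) and Neu1 (0.95). These coefficients are descriptions over arrays that share the group differences and the 3' bias, and they carry no test.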

How the data were processed

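Biotin-labelled RNA of 21 cortices was hybridized to 1-colour Affymetrix arrays, per the labels' protocols. The deposited values are on a log2 scale, read from their range of 2.04 to 15.1. The submitters' processing notes name Partek, with no version, while for background correction and normalization the steps are not stated. Raw intensities were not used here.

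From the 22690 probe sets, 64 controls, 691 with several symbols and 1555 with none were left out, and 20380 remained. Of these, 20351 matched the RefSeq table of GRCm38.p6 by Entrez identifier. The probe set of highest mean stood for each of 12393 genes, of which 2854 were at the lowest value on all arrays and stayed in the test. Groups followed genotype and line. limma 3.58.1 in R 4.3.3 (lmFit, then eBayes with an intensity trend) was fitted to 4 groups with sex by label as a covariate, over all 21 arrays, with Benjamini-Hochberg adjustment. A second fit took every probe set. The script was tested on simulated data. Arrays of 1 group are separate mice per the labels, and their number limits the precision.

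The genes of the set and the lists were chosen with earlier results of these data known. Genes outside the set were named by rule: the 3 largest rises and falls that passed per list, in each bigenic group against nontransgenic mice, and Mdm4. The named likenesses are the 3 highest correlations over arrays. Alternatives were another scaling, sex handling, line, low filter, probe set rule, variance model, 3' bias and each array left out. p-values were adjusted over all genes, never over the set alone.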

Additional observations from a re-analysis of the deposited data

Results flagged for a closer look

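Phlda3 in WT bigenic 3 was at 8.99, far above the other 3 WT bigenic mice, of which the nearest was at 8.31. The same mouse was the highest of its group for Pmaip1 (9.13) and Aen (11.52). Ccng1 in dNLS bigenic 5 was at 11.62, below the nearest dNLS bigenic value of 11.81. That mouse, the 1 female of its group, also had the group's largest beta-actin difference, 2.30, and the part of either in the value was not tested. Of 32 groups examined over 8 genes, these 2 were found, and chance alone gives about 1 in 20. Aen differed between the bigenic groups by 0.95 on the log2 scale, by the test of the difference itself.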

How the results depend on the processing

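Over 11 other settings, 387 of 424 changes of the 8 genes above the lowest value kept direction and side of the threshold, 22 passed where they had not, 2 lost the threshold and 13 changed sign. The last had all not passed: Trp53inp1 in WT bigenic against nontransgenic mice (0.0764 with the 3' bias as a covariate, 0.0454 without the 2 most biased nontransgenic arrays), Sesn1 (0.0052 without sex, 0.0036 with probe sets averaged) and Cdkn1a (-0.0852 with probe sets averaged) in dNLS bigenic against WT bigenic mice, and, in dNLS monogenic against nontransgenic mice, Aen (-0.0323 and -0.0478), Phlda3 (0.0537 and 0.0097) and Ccng1 (-0.0315 and -0.0184) with the bias covariate and without those 2 arrays, Ccng1 (-0.0161) with arrays centred and Mdm2 (-0.0065) with the bias covariate. Outside the set, averaging probe sets turned Bcl2l1 (0.0738) and Cdkn1b (0.28) in dNLS bigenic and Cdkn1b (0.63) in WT bigenic against nontransgenic mice. The cause was not tested. Pmaip1 ran from 3.04 to 3.44 and Aen from 1.07 to 1.58 in dNLS bigenic against nontransgenic mice, and both passed throughout.

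Counts of the 9 genes moved to 4 with centring in WT bigenic against nontransgenic mice. In dNLS bigenic against dNLS monogenic mice they moved to 5 with the bias covariate, 6 without the 2 biased arrays and 5 with only those groups. These included Ccng1 as lower with the bias covariate (-0.16, adjusted p = 0.0446) and Sesn1 as lower without the 2 biased arrays (-0.43, adjusted p = 0.0301). Counts of all genes in WT bigenic against nontransgenic mice, 276, were 4966 with arrays centred (226 higher and 4740 lower, 4.55% higher in place of 30.8%), 505 without sex, 170 with probe sets averaged, 163 with the bias covariate, 424 without those arrays and 0 with only those groups. In dNLS bigenic against WT bigenic mice they were 2437, 2274 and 2320, and against dNLS monogenic mice 2890 and 2885 (bias covariate, without those arrays and, for the first, only those groups), in place of 1334 and 1773. In dNLS bigenic against nontransgenic mice centring made 35.8% of calls higher in place of 48.4%.

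With each array left out, the counts of the 9 genes ran from 3 to 5 in dNLS bigenic and 0 to 1 in WT bigenic against nontransgenic mice, 0 to 2 in dNLS bigenic against WT bigenic, 2 to 6 against dNLS monogenic mice, and stayed 0 in dNLS monogenic against nontransgenic mice. Over all genes, in the same order, they ran from 2365 to 3316, 37 to 579, 817 to 1925, 1373 to 2517 and 0 to 1. Changes that had not passed and changed sign with an array left out were, over all left-out arrays, Ccng1 in WT bigenic (-0.0661 to 0.0256) and Phlda3 (-0.20 to 0.0101), Cdkn1a (-0.24 to 0.0835) and Ccng1 (-0.0032 to 0.0578) in dNLS monogenic against nontransgenic mice, and Sesn1 (-0.18 to 0.0548), Cdkn1a (-0.35 to 0.31) and Mdm2 (-0.17 to 0.0321) in dNLS bigenic against WT bigenic mice. No paired analysis was possible because replicate numbers follow accession order and pair no samples. Levels at 2.04 are upper bounds, so changes from or to them are compressed.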
